A study of Mus musculus with 24 samples.

Results

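Siglec F-low and Siglec F-high alveolar macrophages were compared within old asbestos-exposed mice, across all expressed genes. The comparison used 8 of the 24 libraries of the series: 4 labelled old asbestos Siglec F-low and 4 labelled old asbestos Siglec F-high, chosen by their labels. All 8 came from C57BL/6J mice older than 18 months that had received asbestos 28 days before the cells were sorted from the lung by flow cytometry. The sorts thus shared strain, age and exposure and differed in the level of the surface lectin Siglec F. Resident and monocyte-derived cells were named in the design text, whereas the library labels gave the Siglec F level only. The series also held young (8 to 12 weeks) and old naive F-high cells and both sorts from young asbestos-exposed mice, 4 libraries a group. F-high replicate 3 of the old asbestos group was a poor library, so every value below is without it unless it says otherwise, as 4 F-low against 3 F-high libraries. Nothing in the labels said that the libraries came from separate animals, so p-values measure the spread between these libraries, which may be technical.

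Alveolar macrophages live in the airspace, clear surfactant and inhaled particles, and in the healthy mouse lung renew themselves locally under GM-CSF and PPARγ. Siglec F is one of their surface markers. After lung injury, monocytes from the blood enter the airspace and mature into macrophages that pass through a Siglec F-low stage, and such cells are known as a source of matrix-remodelling enzymes and fibroblast growth signals in fibrosis models. The comparison of the sorts asks how the cells of these gates differ in RNA in aged, asbestos-exposed lungs.

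The 22 libraries of the fit held 13423080 to 18124526 counts, and each correlated with the mean of the others of its group at 0.986 to 0.993 across genes. Old asbestos F-high replicate 3 held 3894699 counts, 50.2% of them on rRNA-related genes, and correlated at 0.905. Young asbestos F-high replicate 3, which held 11889517 counts on fewer genes and correlated at 0.872, was left out as well, because all groups share an estimate of the spread between libraries. In the principal components of the 7 old asbestos libraries, the first held 42.1% of the variance and separated the sorts without overlap, with F-high at -37.69 to -27.25 and F-low at 13.63 to 36.93.

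Of 13629 genes tested with edgeR's quasi-likelihood test, 1578 (11.6%) were called at an adjusted p under 0.05. Higher in F-low were 858 genes (6.3%) and lower were 720 (5.28%). These shares are the background against which the gene groups below stand. Large differences were mostly increases: 359 called genes were at least 2-fold higher and 95 at least 2-fold lower in F-low. In 1462 of the 1578 called genes the values of the sorts did not overlap. Among all genes tested, 11.5% had every F-low library above every F-high library and 11.3% had every F-low library below. Most genes named below were chosen because they were called without overlap, so their separation is not a further result. With all 24 libraries in the fit, F-high replicate 3 included, 355 genes were called higher (2.64%) and 224 lower (1.66%), and 551 of these 579 were among the 1578, each in the same direction. With only young asbestos F-high replicate 3, which lies outside this contrast, added back to the 22 libraries, 429 genes were called. A fit without old F-high replicate 2 called 1024.

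**Figure D1:**
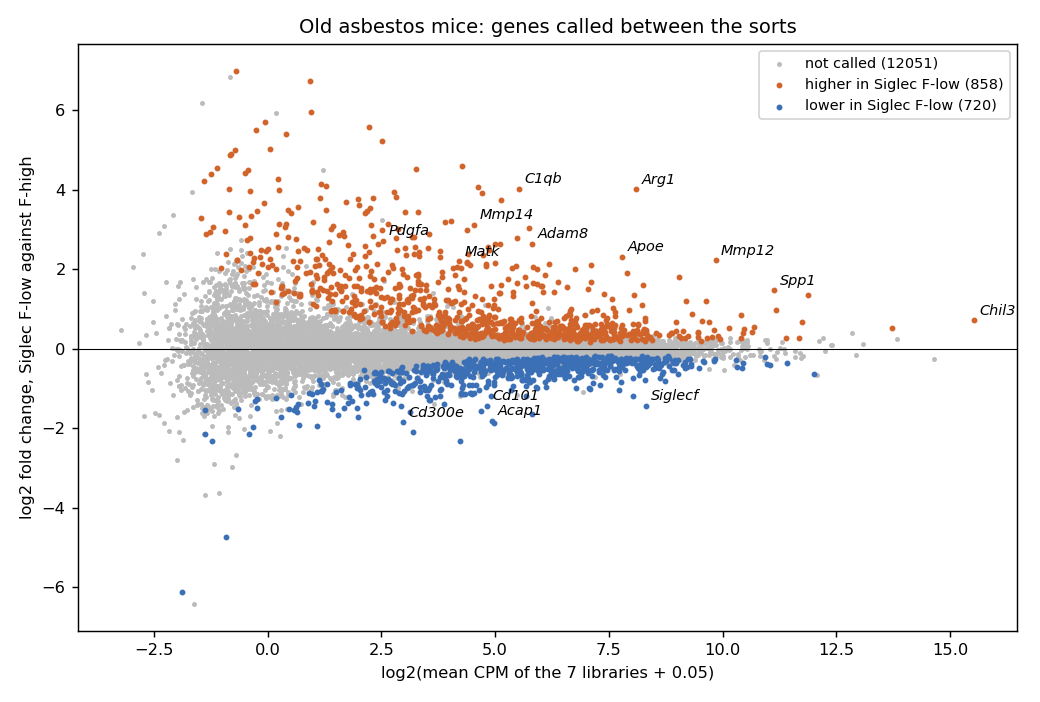
Each point is 1 of the 13629 genes tested; the x axis is log2 of its mean CPM over the 7 old asbestos libraries plus 0.05, and the y axis its log2 fold change in F-low against F-high. The 858 genes called higher (orange) reach further from 0 than most of the 720 called lower (blue), and grey points were not called.

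The sort marker itself followed the gate. Siglecf (chr7:43351341-43359531, plus strand, protein coding), which encodes Siglec F, stood at 484, 502 and 502 CPM (counts scaled to equal library size) in F-high replicates 1, 2 and 4 and at 234, 156, 169.6 and 176 CPM in F-low replicates 1 to 4. All 4 F-low libraries lay below all 3 F-high libraries, and F-low replicate 1 was the highest of its sort. The log2 fold change was -1.43 ± 0.10 (SE; edgeR adjusted p = 3.99e-09), 2.697-fold lower in F-low. The left-out F-high library held 388 CPM, above every F-low library. Siglece, an inhibitory receptor of the same family, was also lower (-1.12 ± 0.14, edgeR adjusted p = 1.05e-05).

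Genes that mark resident alveolar macrophages were split. Of the 35 tested, 15 were lower and 3 higher in F-low, with a median log2 fold change of -0.21, against -0.01 over all genes tested. The 15 lower genes included Ear1, an eosinophil-type ribonuclease typical of alveolar macrophages, Fabp1, a fatty acid binding protein, Cidec, a lipid droplet protein, and Il18, an inflammasome cytokine. Ear1 stood at 375, 433 and 346 CPM in the F-high and at 168, 219, 199.8 and 92.1 CPM in the F-low libraries. Fabp1 stood at 74.4, 82.99 and 66.6 CPM in the F-high and at 28.3, 35.9, 52.7 and 15.8 CPM in the F-low libraries. Il18 stood at 144, 169 and 141 CPM in the F-high and at 96.97, 95.1, 105 and 81.6 CPM in the F-low libraries. For all these genes each F-low library lay below each F-high library, with log2 fold changes of -1.18 ± 0.20 for Ear1, -1.18 ± 0.24 for Fabp1 and -0.68 ± 0.11 for Il18 (edgeR adjusted p = 2.46e-04, 0.00202 and 1.56e-04). Cidec was lower with some overlap between the sorts (-0.74 ± 0.17, edgeR adjusted p = 0.00423).

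The 3 higher members were Chil3, the chitinase-like protein Ym1, Fabp4, a lipid chaperone, and Slc7a2, an arginine transporter. Chil3 stood at 35679.5, 36396 and 31911 CPM in the F-high and at 64227, 54878, 50064 and 59279.5 CPM in the F-low libraries. The sorts did not overlap, and the fold change was 1.65 (log2 0.72 ± 0.13, edgeR adjusted p = 4.15e-04). Fabp4 changed by 0.92 ± 0.27 on the log2 scale (edgeR adjusted p = 0.0253) and Slc7a2 by 0.51 ± 0.08 (edgeR adjusted p = 2.14e-04). Fabp4 was not called with all 24 libraries or with young asbestos F-high replicate 3 alone added back (edgeR adjusted p = 0.1902 and 0.458). Its call was also lost without F-high replicates 1, 2 or 4 or F-low replicate 2 (edgeR adjusted p = 0.0661 to 0.106). The summed level of the 35 markers, Chil3 included, was 56218 to 60880.2 CPM in F-high and 71578 to 87102 CPM in F-low. Most of that sum was Chil3, at 31911 to 36396 CPM in F-high and 50064 to 64227 CPM in F-low. The higher sum therefore does not show that the other markers rose.

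Several genes of alveolar macrophage identity were present in both sorts and not called. Pparg, the nuclear receptor of the resident program, stood at 203, 205 and 204 CPM in F-high and 190.1, 181, 170.3 and 178 CPM in F-low. Every F-low library lay below every F-high library, but the small difference was not called (log2 -0.18 ± 0.10, edgeR adjusted p = 0.2897). Its fitted value stayed negative, at -0.208 to -0.155, under every alternative. Marco, a scavenger receptor for particles, stood at 274, 355 and 303 CPM in F-high and 325, 649, 315 and 266 CPM in F-low, where replicate 2 was far above the rest. Its log2 fold change was 0.32 ± 0.45 (edgeR adjusted p = 0.752), and -0.04 without F-low replicate 2. Car4, a carbonic anhydrase, stood at 769, 928 and 849 CPM in F-high and 1143, 999, 844 and 1026 CPM in F-low (log2 0.24 ± 0.24, edgeR adjusted p = 0.613). With all 24 libraries, 2 higher and 5 lower were called among the 35 resident markers.

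Among 34 markers of monocytes and recruited macrophages, 6 were higher (17.6%) and 5 lower (14.7%) in F-low, with a median of 0.18. Over all genes the shares were 6.3% and 5.28%. The summed level of the 34 markers went against their median, at 35442 to 36949 CPM in F-high and 27628 to 33519 CPM in F-low, lower in F-low without overlap. Most of the sum was Lyz2, the myeloid lysozyme, whose count is uncertain because of a closely similar neighbouring gene, at 27906, 28590.0 and 29036 CPM in F-high and 25992, 21080.3, 22836 and 24923 CPM in F-low, a difference that was not called (log2 -0.27 ± 0.12, edgeR adjusted p = 0.175). Itgam, the CD11b integrin chain, stood at 26.01, 22.8 and 33.2 CPM in F-high and 79.7, 67.1, 76.4 and 117 CPM in F-low. Cx3cr1, the fractalkine receptor, stood at 2.57, 2.31 and 2.56 CPM in F-high and 10.2, 5.03, 7.195 and 4.92 CPM in F-low. Neither gene overlapped between the sorts, and the folds were 3.12 and 2.76 (log2 1.64 ± 0.18 and 1.46 ± 0.28, edgeR adjusted p = 1.77e-06 and 9.05e-04). Ms4a7, a membrane protein of macrophages, stood at 9.44, 7.36 and 9.62 CPM in F-high and 22.2, 16.8, 18.95 and 24.6 CPM in F-low (log2 1.23 ± 0.18, edgeR adjusted p = 6.23e-05). The call of Ms4a7 was lost with young asbestos F-high replicate 3 alone added back (edgeR adjusted p = 0.0798).

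The early monocyte genes Ccr2 and Ly6c2 had positive log2 fold changes but were not called. Ccr2, the chemokine receptor of classical monocytes, stood at 13.9, 19.4 and 15.04 CPM in F-high and 24.5, 22.9, 19.4 and 23.8 CPM in F-low, without overlap but with a difference that was not called (log2 0.49 ± 0.22, edgeR adjusted p = 0.163). A fit of only the groups compared gave an adjusted p of 0.0329 for Ccr2. Ly6c2, the Ly6C antigen of the same monocytes, was at 0.707 to 1.55 CPM in F-high and 0.981 to 2.78 CPM in F-low, with overlap (log2 0.60 ± 0.46, edgeR adjusted p = 0.493). Cd300e, an activating receptor of non-classical monocytes, went the other way: Cd300e stood at 16.1, 12.7 and 10.9 CPM in the F-high and at 4.05, 4.68, 2.85 and 3.24 CPM in the F-low libraries. That was 3.58-fold lower in F-low without overlap (log2 -1.84 ± 0.22, edgeR adjusted p = 4.32e-06). With all 24 libraries, 4 higher and 1 lower were called among the 34. In these bulk libraries, fewer cells of a kind and less RNA per cell cannot be told apart.

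**Figure D2:**
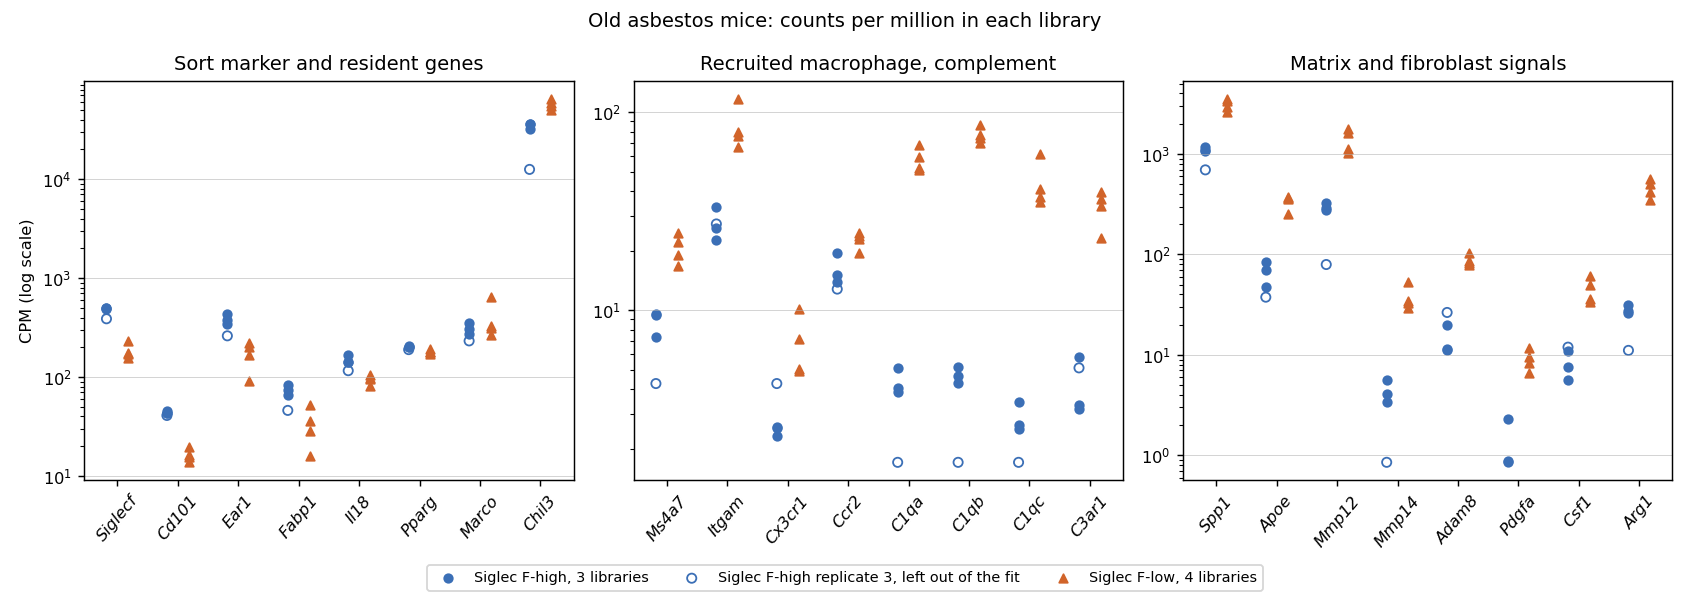
CPM on a log axis in each old asbestos library for 24 genes in 3 panels; filled blue circles are F-high replicates 1, 2 and 4, the open circle is the left-out F-high replicate 3, and orange triangles are the 4 F-low libraries. C1qa, C1qb, C1qc, Arg1, Mmp14 and Apoe leave wide gaps between the sorts, while Pparg, Marco and Ccr2 do not.

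The chains of complement C1q showed some of the largest differences. C1q is the recognition molecule of the classical pathway, and macrophages make its A, B and C chains from neighbouring genes on chromosome 4: C1qa at chr4:136895917-136898803, C1qc at chr4:136889804-136893065 and C1qb at chr4:136880129-136886187, all on the minus strand. C1qa stood at 3.85, 4.05 and 5.12 CPM in the F-high and at 68.8, 51.3, 59.2 and 52.4 CPM in the F-low libraries. C1qb stood at 4.304, 4.68 and 5.196 CPM in the F-high and at 86.9, 70.1, 76.7 and 73.9 CPM in the F-low libraries. C1qc stood at 2.51, 3.43 and 2.64 CPM in the F-high and at 61.5, 37.4, 40.8 and 35.1 CPM in the F-low libraries. The lowest F-low library exceeded the highest F-high library for each chain, and the folds were 13.4, 16.3 and 15.2 (log2 3.74 ± 0.22, 4.03 ± 0.21 and 3.93 ± 0.24, edgeR adjusted p = 1.21e-10, 2.27e-11 and 1.71e-10). The left-out F-high library held 1.71 CPM of each chain. That value rests on few counts, as the library held 3894699 counts, 50.2% of them on rRNA-related genes.

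Receptors of complement fragments moved in both directions. C3ar1, the receptor for the C3a fragment, stood at 5.85, 3.18 and 3.33 CPM in F-high and 36.4, 23.1, 33.6 and 39.8 CPM in F-low, 8.02-fold higher (log2 3.003 ± 0.21, edgeR adjusted p = 2.35e-09). C5ar1, the receptor for C5a, was lower (log2 -0.84 ± 0.21, edgeR adjusted p = 0.0106). The call of C5ar1 was lost without F-high replicate 2 or in a fit of only these groups (edgeR adjusted p = 0.0577 and 0.0959). It was also lost with young asbestos F-high replicate 3 alone added back (edgeR adjusted p = 0.0761). Over the 20 complement genes tested, 7 were higher and 2 lower, and with all 24 libraries 6 higher and 2 lower.

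Genes described for macrophages of fibrotic scars were mostly higher in F-low. Of 28 tested, 19 were higher and 1 lower, with a median log2 fold change of 0.78. This list was written with earlier results of these data known, so its direction is not independent evidence. Spp1, the secreted matrix protein osteopontin, stood at 1168, 1081 and 1083 CPM in F-high and 2912, 3509.5, 3370.1 and 2607 CPM in F-low. Apoe, the apolipoprotein that carries cholesterol out of macrophages, stood at 84.5, 47.3 and 70.6 CPM in F-high and 254, 354, 373 and 363 CPM in F-low. Mmp12, the macrophage elastase, stood at 323, 275 and 290.2 CPM in F-high and 1792, 1133, 1023 and 1604 CPM in F-low. The sorts did not overlap for any of these genes, and F-low replicate 1 was the lowest F-low library for Apoe. Spp1 was 2.79-fold higher (log2 1.48 ± 0.22), Apoe 4.99-fold (log2 2.32 ± 0.19) and Mmp12 4.69-fold (log2 2.23 ± 0.54), with edgeR adjusted p values of 6.21e-05, 2.05e-08 and 0.00775.

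The other members of that list ranged widely in size and in how they held under other fits. Trem2, the lipid-sensing receptor, stood at 145, 123 and 145 CPM in F-high and 254, 199, 252 and 277 CPM in F-low (log2 0.83 ± 0.15, edgeR adjusted p = 4.54e-04). Gpnmb, a glycoprotein of lysosome-rich macrophages, changed by 0.86 ± 0.23 on the log2 scale (edgeR adjusted p = 0.0171). Gpnmb was not called with all 24 libraries or with young asbestos F-high replicate 3 alone added back (edgeR adjusted p = 0.0647 and 0.209). Its call was also lost without F-high replicate 2 or F-low replicate 4 (edgeR adjusted p = 0.0839 to 0.119). Fn1, fibronectin, changed by 1.36 ± 0.23 on the log2 scale (edgeR adjusted p = 2.53e-04). The call of Fn1 was lost with all 24 libraries (edgeR adjusted p = 0.0662). Sdc1, the heparan sulfate proteoglycan syndecan-1, had one of the larger differences at 3.13 ± 0.32 (edgeR adjusted p = 9.24e-07). The single lower member was Apoc1, an apolipoprotein that neighbours Apoe in the genome (-1.36 ± 0.32, edgeR adjusted p = 0.00574). Apoc1 was not called with all 24 libraries or with young asbestos F-high replicate 3 alone added back (edgeR adjusted p = 0.0786 and 0.109). With all 24 libraries, 14 higher and 0 lower were called among the 28.

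Matrix-degrading enzymes and their inhibitors had 15 higher and no lower gene among 35 tested, with a median of 0.71 (with all 24 libraries, 13 higher and 0 lower). Mmp14, a membrane-bound collagenase, stood at 4.05, 3.37 and 5.58 CPM in F-high and 34.8, 29.3, 32.7 and 53.02 CPM in F-low. Adam8, a sheddase of myeloid cells, stood at 11.1, 11.4 and 19.9 CPM in F-high and 85.4, 78.8, 83.1 and 104 CPM in F-low. Both genes were separated without overlap, by 8.72-fold for Mmp14 (log2 3.12 ± 0.24) and 6.26-fold for Adam8 (log2 2.65 ± 0.18), with edgeR adjusted p values of 8.87e-09 and 7.10e-10. The lysosomal protease Ctsl was 2.29-fold higher (log2 1.20 ± 0.13, edgeR adjusted p = 1.48e-06). An inhibitor of matrix enzymes rose with them: Timp1 was at 0.578, 3.37 and 2.56 CPM in F-high and 9.75, 10.7, 13.96 and 15.7 CPM in F-low (log2 2.53 ± 0.37, edgeR adjusted p = 6.12e-05).

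Among 31 growth factors and other signals to fibroblasts, 6 were higher and 1 lower (with all 24 libraries, 5 higher and 0 lower). Pdgfa, a ligand that drives fibroblast growth, stood at 2.31, 0.873 and 0.853 CPM in F-high and 8.28, 6.54, 9.62 and 11.7 CPM in F-low. Csf1, the macrophage growth factor M-CSF, stood at 5.59, 7.54 and 10.9 CPM in F-high and 35.6, 33.5, 49.6 and 61.1 CPM in F-low. Hbegf, an EGF receptor ligand, stood at 2.31, 1.81 and 5.196 CPM in F-high and 11.8, 10.5, 16.4 and 32.6 CPM in F-low. None of the 3 genes overlapped between the sorts. The log2 fold changes were 2.73 ± 0.33 for Pdgfa, 2.50 ± 0.22 for Csf1 and 2.54 ± 0.42 for Hbegf (edgeR adjusted p = 4.76e-06, 9.76e-08 and 2.44e-04). Igf1, insulin-like growth factor 1, was 2.04-fold higher (log2 1.03 ± 0.23, edgeR adjusted p = 0.00339). The lower member was Pdgfc (-0.61 ± 0.09, edgeR adjusted p = 8.55e-05). Pdgfc was not called with all 24 libraries or with young asbestos F-high replicate 3 alone added back (edgeR adjusted p = 0.0792 and 0.0798).

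Chemokine ligands had 5 higher (20%) and 2 lower (8%) genes among 25 tested, against 6.3% and 5.28% of all genes. With all 24 libraries, 3 were higher and 1 lower. Ccl24, an eosinophil attractant, stood at 3.404, 3.55 and 1.47 CPM in F-high and 25.2, 37.7, 13.7 and 28.9 CPM in F-low, so its absolute level was low in F-high. The log2 fold change was 3.21 ± 0.71 (edgeR adjusted p = 0.00388). The call of Ccl24 was lost with young asbestos F-high replicate 3 alone added back (edgeR adjusted p = 0.0645). Cxcl16, a membrane-bound ligand that also takes up oxidised lipid, was 2.65-fold higher (log2 1.41 ± 0.14, edgeR adjusted p = 5.24e-07). Among 28 integrins, adhesion molecules and chemokine receptors, 8 were higher and 1 lower. Cmklr1, the receptor for chemerin, was at 0.642, 0.499 and 1.396 CPM in F-high and 13.1, 7.57, 11.9 and 14.3 CPM in F-low (14.2-fold, log2 3.82 ± 0.37, edgeR adjusted p = 3.28e-07).

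Genes induced by IL-4 and IL-13 in alternatively activated macrophages had 12 higher and 2 lower members among 31 tested, with a median of 0.35 (with all 24 libraries, 8 higher and 1 lower). Arg1, the arginase that converts arginine to ornithine, stood at 25.95, 31.5 and 27.5 CPM in F-high and 352, 417, 565 and 499.9 CPM in F-low. The lowest F-low library lay far above the highest F-high library, and the fitted fold was 16.2 (log2 4.02 ± 0.24, edgeR adjusted p = 1.59e-10). The left-out F-high library held 11.1 CPM of Arg1. Retnla, the secreted protein FIZZ1, changed by 2.64 ± 0.43 on the log2 scale (edgeR adjusted p = 2.19e-04), and Irf4, a transcription factor of this program, by 1.04 ± 0.18 (edgeR adjusted p = 4.39e-04). The call of Retnla was lost with young asbestos F-high replicate 3 alone added back (edgeR adjusted p = 0.0563). Slc7a2, which imports the substrate of arginase, was higher as given above. Cd209b, the lectin SIGN-R1, was lower (log2 -1.38 ± 0.19, edgeR adjusted p = 3.70e-05).

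Most genes of cholesterol synthesis were higher in F-low, while a part of the efflux genes was lower. Of 34 genes of cholesterol and fatty acid synthesis, most of them targets of the SREBP factors that sense low sterol, 22 were higher and none lower, with a median of 0.47. Sqle, squalene epoxidase, stood at 63.5, 62.1 and 70.2 CPM in F-high and 114, 121, 125 and 101 CPM in F-low. Fdps, farnesyl diphosphate synthase, stood at 46.3, 43.3 and 47.2 CPM in F-high and 74.3, 78.7, 78.01 and 80.1 CPM in F-low. Neither gene overlapped between the sorts (log2 0.82 ± 0.12 and 0.77 ± 0.14, edgeR adjusted p = 8.86e-05 and 6.64e-04). The call of Fdps was lost with young asbestos F-high replicate 3 alone added back (edgeR adjusted p = 0.0562). With all 24 libraries the list had 6 higher and 0 lower.

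Of 19 genes of cholesterol efflux and apolipoproteins, 7 were lower, 1, Apoe, was higher and 11 were not called (with all 24 libraries, 1 higher and 4 lower). The median log2 fold change of the 19 was 0.03, and 11 of them had a value above 0. Abca1, which exports cholesterol to lipid-poor apolipoproteins, stood at 233, 202 and 207 CPM in F-high and 131, 106, 103 and 118 CPM in F-low. Mylip, a sterol-induced ubiquitin ligase, stood at 61.9, 58.9 and 51.2 CPM in F-high and 29.4, 30.4, 27.7 and 25.4 CPM in F-low. Both are induced by the sterol-sensing receptors LXR, and both were lower without overlap (log2 -0.90 ± 0.14 and -1.02 ± 0.12, edgeR adjusted p = 8.92e-05 and 3.84e-06). The exporter Abcg1 was lower by a smaller margin (log2 -0.42 ± 0.07, edgeR adjusted p = 5.12e-04), as was Pltp, phospholipid transfer protein (log2 -0.71 ± 0.09, edgeR adjusted p = 1.38e-05). The call of Abcg1 was lost with young asbestos F-high replicate 3 alone added back (edgeR adjusted p = 0.102). Pltp was not called with all 24 libraries or with young asbestos F-high replicate 3 alone added back (edgeR adjusted p = 0.349 and 0.347). Apoe is itself an LXR target and moved against these genes. Genes of lipid uptake, storage and fatty acid oxidation were divided, with 10 higher and 6 lower of 47 (with all 24 libraries, 4 higher and 3 lower).

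Chaperones of the endoplasmic reticulum (ER) and other genes of the unfolded protein response had 16 higher and no lower member of 30, with small differences (median 0.25, with all 24 libraries 3 higher and 0 lower). Hspa5, the ER chaperone BiP, stood at 1045, 1110.3 and 1249.9 CPM in F-high and 1577, 1379, 1682 and 1828 CPM in F-low. Dnajc3, a co-chaperone that also restrains the stress kinase PERK, stood at 194, 201 and 223 CPM in F-high and 263, 250.4, 248 and 289 CPM in F-low. Both were higher without overlap (log2 0.51 ± 0.11 and 0.35 ± 0.08, edgeR adjusted p = 0.00408 and 0.00389).

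The ER stress response element, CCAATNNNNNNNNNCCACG, is bound by ATF6 with NF-Y and was searched in the 250 bases before each RefSeq start on both strands. It was present in 7 of the 13 called genes of the ER list that had a promoter entry and in 2 of 11 that were not called, and in 0.13% of 27025 genes. The list was chosen as genes of this response, so the presence of its element there is not independent evidence. The called genes that hold it are shown with 5 bases on each side, the element in capitals. Capitals that begin with CGTGG carry the element on the opposite strand, and Hsp90b1 has 2 copies (GRCm38.p6).
Hspa5, chr2:34772020-34772048, plus strand: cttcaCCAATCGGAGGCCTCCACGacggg
Hsp90b1 first, chr10:86705633-86705661, minus strand: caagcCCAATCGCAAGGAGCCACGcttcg
Hsp90b1 second, chr10:86705528-86705556, minus strand: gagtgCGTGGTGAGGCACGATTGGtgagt
Calr, chr8:84847070-84847098, minus strand: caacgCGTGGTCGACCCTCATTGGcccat
Canx, chr11:50325795-50325823, minus strand: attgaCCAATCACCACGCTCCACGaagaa
Pdia6, chr12:17266486-17266514, plus strand: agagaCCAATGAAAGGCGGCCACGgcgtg
Dnajc3, chr14:118937822-118937850, plus strand: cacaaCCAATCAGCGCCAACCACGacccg
Creld2, chr15:88819515-88819543, plus strand: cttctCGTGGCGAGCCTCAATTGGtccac

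These genes encode the chaperones BiP (Hspa5), GRP94 (Hsp90b1), calreticulin (Calr) and calnexin (Canx), the disulfide isomerase Pdia6, and the helpers Dnajc3 and Creld2. Their log2 fold changes were 0.33 for Hsp90b1, 0.27 for Calr, 0.21 for Canx, 0.35 for Pdia6 and 0.47 for Creld2, beside those of Hspa5 and Dnajc3 above. Among these 7, Hspa5 and Dnajc3 were also called with all 24 libraries. Hsp90b1 was not called with all 24 libraries or with young asbestos F-high replicate 3 alone added back (edgeR adjusted p = 0.497 and 0.911). Its call was also lost without F-high replicates 1 or 2 or F-low replicate 4 (edgeR adjusted p = 0.0594 to 0.107). Calr was not called with all 24 libraries or with young asbestos F-high replicate 3 alone added back (edgeR adjusted p = 0.0789 and 0.121). Its call was also lost without F-high replicates 1 or 2 or F-low replicate 4 (edgeR adjusted p = 0.0748 to 0.0929). Canx was not called with all 24 libraries or with young asbestos F-high replicate 3 alone added back (edgeR adjusted p = 0.387 and 0.649). Its call was also lost without F-high replicates 1 or 2 or F-low replicates 1, 3 or 4 (edgeR adjusted p = 0.0597 to 0.158). A fit of only these groups, or one with no filter on low counts, lost it too (edgeR adjusted p = 0.0712 and 0.134). Pdia6 was not called with all 24 libraries or with young asbestos F-high replicate 3 alone added back (edgeR adjusted p = 0.264 and 0.671). Its call was also lost without F-high replicates 1 or 4 or F-low replicate 4 (edgeR adjusted p = 0.0512 to 0.0584). Creld2 was not called with all 24 libraries or with young asbestos F-high replicate 3 alone added back (edgeR adjusted p = 0.181 and 0.462).

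The integrated stress response lowers translation through eIF2 and raises the factor ATF4. Of its 37 genes 4 were higher (10.8%, against 6.3% of all genes) and none lower (median 0.09). Atf4 stood at 201, 228 and 217 CPM in F-high and 206, 203, 218 and 216 CPM in F-low, with overlap (log2 -0.03 ± 0.11, edgeR adjusted p = 0.909). The fitted value was positive, at 0.11, with all 24 libraries. Ddit3, the stress factor CHOP, was not called (log2 0.42 ± 0.22, edgeR adjusted p = 0.2505). Atf5, a related factor, was called (log2 0.74 ± 0.13, edgeR adjusted p = 3.43e-04). The call of Atf5 was lost with young asbestos F-high replicate 3 alone added back (edgeR adjusted p = 0.0734). Of 26 cytosolic heat shock chaperones 2 were higher (7.69%), a share near the 6.3% of all genes. Of 48 proteasome genes only Psmd8, a lid subunit, was called (log2 0.37 ± 0.11, edgeR adjusted p = 0.0278), or 2.08% of the list. Psmd8 was not called with all 24 libraries or with young asbestos F-high replicate 3 alone added back (edgeR adjusted p = 0.195 and 0.489). Its call was also lost without F-high replicates 1, 2 or 4 or F-low replicates 1 or 4 (edgeR adjusted p = 0.0630 to 0.0998).

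**Figure D3:**
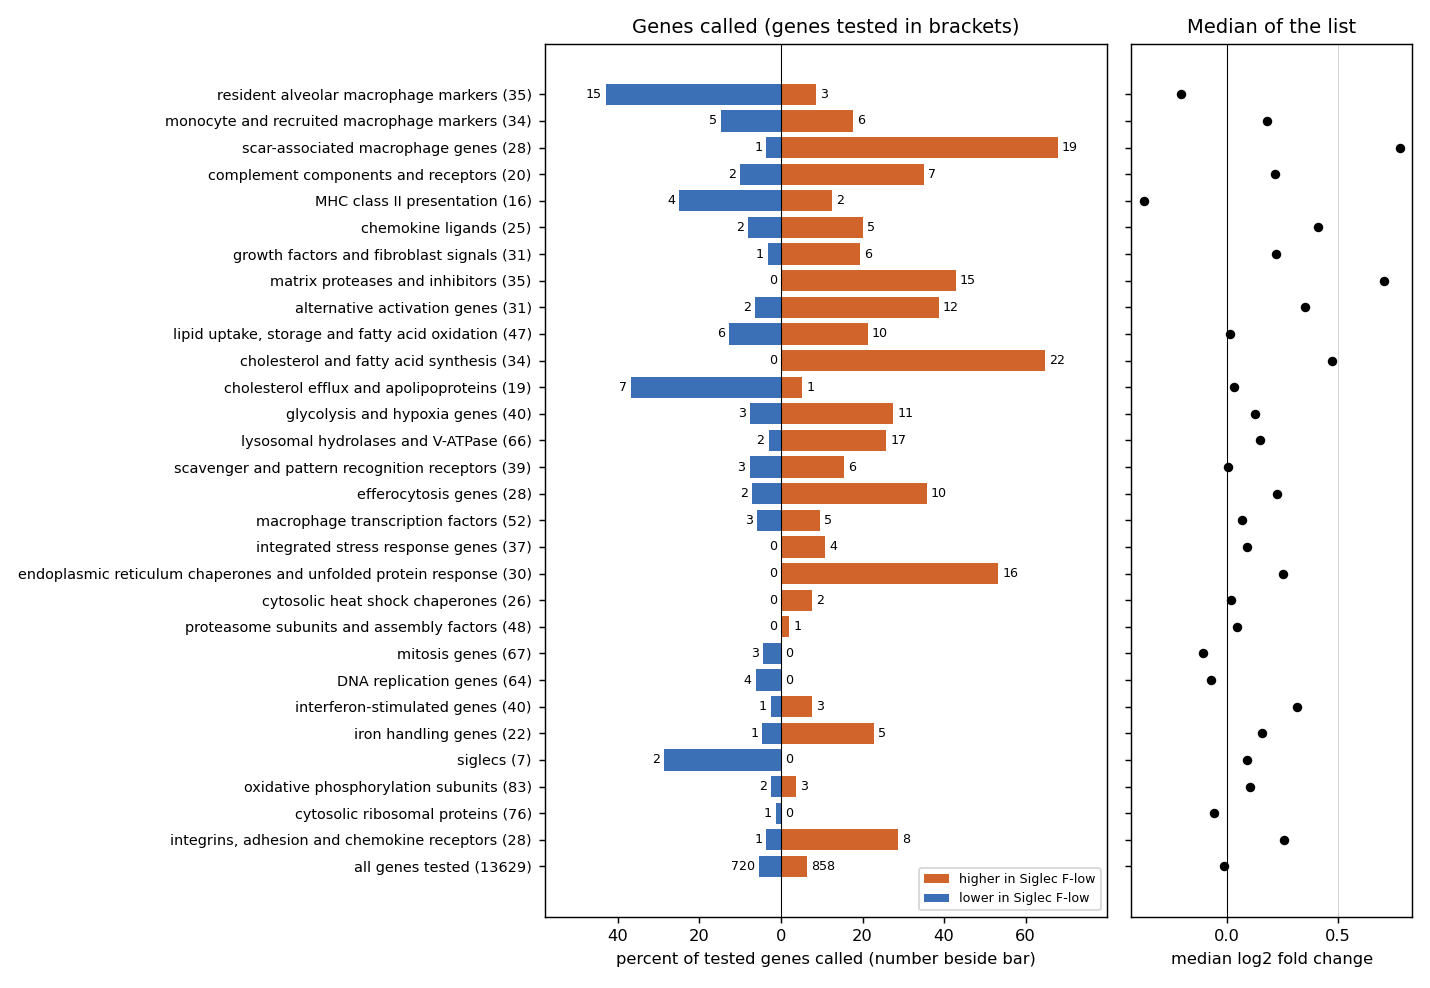
For each gene list, bars give the percent of its tested genes that were called higher (orange, right) or lower (blue, left) in F-low, with counts beside the bars and genes tested in brackets, and points give the list's median log2 fold change. Scar-associated, cholesterol synthesis and ER chaperone genes were called higher in most of their members, against 6.3% of all genes tested; resident and cholesterol efflux genes had more lower than higher calls.

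Of 40 genes of glycolysis and hypoxia, 11 (27.5%) were higher, against 6.3% of all genes, and 3 were lower (with all 24 libraries, 5 higher and 0 lower). Hk3, a myeloid hexokinase, stood at 64.9, 60.9 and 66.4 CPM in F-high and 132, 108, 126 and 151 CPM in F-low, without overlap (log2 1.01 ± 0.11, edgeR adjusted p = 1.27e-06). Ldhb, the heart-type lactate dehydrogenase chain, stood at 0.321, 0.187 and 0.155 CPM in F-high and 2.88, 2.204, 5.77 and 5.05 CPM in F-low, and Eno2, an enolase, at 0.4496, 0.187 and 0.388 and 1.96, 1.65, 2.07 and 3.75 CPM. Both were called higher (edgeR adjusted p = 3.27e-05 and 0.00422), but rested on only a few counts in each F-high library, so the size of their differences is imprecise. Of 83 oxidative phosphorylation subunits 3 were higher and 2 lower, and of 76 cytosolic ribosomal proteins 1 was lower, shares at or under the 11.6% of all genes. Lysosomal enzymes and proton pump subunits had 17 higher and 2 lower of 66, with a median of 0.15 (with all 24 libraries, 7 higher and 0 lower).

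Iron handling genes had 5 higher and 1 lower of 22 (with all 24 libraries, 3 higher and 0 lower). Tfrc, the transferrin receptor that imports iron, stood at 19.8, 21.9 and 25.3 CPM in F-high and 54.7, 59.9, 102 and 141 CPM in F-low. Slc11a1, the phagosomal metal transporter NRAMP1, stood at 17.2, 14.6 and 30.3 CPM in F-high and 76.8, 55.1, 63.5 and 92.96 CPM in F-low. Both genes were higher without overlap, Tfrc 4.01-fold (log2 2.003 ± 0.24) and Slc11a1 3.51-fold (log2 1.81 ± 0.21), with edgeR adjusted p values of 4.32e-06 and 3.34e-06.

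Proliferation and interferon genes showed few calls, and MHC class II genes a larger share. Of 67 mitosis genes 3 were lower and none higher, and of 64 DNA replication genes 4 were lower and none higher (medians -0.11 and -0.07), shares close to the 5.28% of all genes. Anln, the cytokinesis protein anillin, changed by -0.38 ± 0.08 on the log2 scale (edgeR adjusted p = 0.00362). The call of Anln was lost with young asbestos F-high replicate 3 alone added back (edgeR adjusted p = 0.0541). Of 40 interferon-stimulated genes 3 were higher (7.5%, against 6.3% of all genes) and 1 lower, and with all 24 libraries none was called. Their median was 0.32, and 29 of the 40 had a value above 0. MHC class II genes had 4 lower (25%) and 2 higher (12.5%) of 16, with a median of -0.37. With all 24 libraries, 0 were higher and 0 lower. Ciita, the master regulator of class II transcription, stood at 71.6, 59.05 and 60.2 CPM in F-high and 43.6, 36.7, 40.3 and 26.2 CPM in F-low (log2 -0.79 ± 0.22, edgeR adjusted p = 0.0194). Ciita was not called with all 24 libraries or with young asbestos F-high replicate 3 alone added back (edgeR adjusted p = 0.0904 and 0.238). Its call was also lost without F-high replicate 1 or F-low replicate 4 (edgeR adjusted p = 0.0791 to 0.0987).

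The named genes of smallest p included several outside these groups. The rule that named them required a call and values without overlap, so their separation follows from the choice. Higher in F-low were Matk, a kinase that restrains Src, Wfs1, an ER membrane protein, and Slamf7, a self-binding surface receptor. Matk stood at 6.36, 5.74 and 6.05 CPM in the F-high and at 32.2, 25.1, 25.8 and 28.3 CPM in the F-low libraries. Wfs1 stood at 9.57, 7.92 and 7.68 CPM in the F-high and at 25.1, 23.6, 30.2 and 34.4 CPM in the F-low libraries. Slamf7 stood at 8.86, 6.86 and 8.14 CPM in the F-high and at 46.9, 37.6, 48.4 and 65.6 CPM in the F-low libraries. Each of these genes was separated without overlap, by 4.604-fold for Matk (log2 2.20 ± 0.16), 3.37-fold for Wfs1 (log2 1.75 ± 0.14) and 6.24-fold for Slamf7 (log2 2.64 ± 0.21), with edgeR adjusted p values of 5.28e-09, 1.43e-08 and 1.99e-08.

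Lower in F-low by the same rule were Cd101, an inhibitory surface receptor of alveolar macrophages, Pilra, an inhibitory myeloid receptor, Vstm2a, a secreted immunoglobulin-domain protein, Pygl, the glycogen phosphorylase of liver and myeloid cells, and Acap1, a regulator of ARF6 trafficking. The same rule named Rassf5, an effector of RAP1 in adhesion, Gpr155, a lysosomal cholesterol sensor, and Lepr, the leptin receptor. Cd101 stood at 43.6, 45.8 and 43.2 CPM in the F-high and at 19.8, 13.8, 16.3 and 15.5 CPM in the F-low libraries. Acap1 stood at 52.7, 56.2 and 45.6 CPM in the F-high and at 19.5, 15.8, 9.404 and 14.2 CPM in the F-low libraries. Lepr stood at 146, 158 and 155 CPM in the F-high and at 87.8, 85.7, 77.2 and 58.5 CPM in the F-low libraries. The values of these genes did not overlap, and the folds were 2.7 lower for Cd101 (log2 -1.43 ± 0.14), 3.49 for Acap1 (log2 -1.80 ± 0.20) and 1.98 for Lepr (log2 -0.98 ± 0.12), with edgeR adjusted p values of 3.57e-07, 1.56e-06 and 6.41e-06. The log2 fold changes of the others were -1.02 for Pilra, -0.995 for Vstm2a, -0.58 for Pygl, -0.66 for Rassf5 and -0.96 for Gpr155.

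Markers of other cells that a lung macrophage gate could hold were counted list by list. None of the 15 B cell, 5 eosinophil, mast cell and basophil, 9 fibroblast and smooth muscle or 4 erythroid and platelet markers tested was called. Their summed levels overlapped between the sorts. B cell markers summed to 68.9 to 232 CPM in F-high and 117 to 265 CPM in F-low, and those of eosinophils, mast cells and basophils to 15.8 to 40.8 CPM in F-high and 19.9 to 58.6 CPM in F-low. Fibroblast and smooth muscle markers summed to 7.52 to 21.6 CPM in F-high and 11.7 to 21.3 CPM in F-low, and erythroid and platelet markers to 5.74 to 10.02 CPM in F-high and 6.13 to 11.3 CPM in F-low. Mpo of the neutrophil list and Slc4a1 of the erythroid list were among the genes at 0 in all 7 libraries. Of 17 T and NK cell markers Il7r, the IL-7 receptor, was higher and Cd2 lower (summed 347 to 409.5 CPM in F-high and 350.3 to 382 CPM in F-low). Each was 5.88% of the list, near the 6.3% and 5.28% of all genes. Cd2 was not called with all 24 libraries or with young asbestos F-high replicate 3 alone added back (edgeR adjusted p = 0.863 and 0.0769). Its call was also lost without F-high replicate 2 (edgeR adjusted p = 0.117). Il7r stood at 8.74, 10.97 and 10.9 CPM in F-high and 63.9, 51.6, 67.4 and 98.8 CPM in F-low (log2 2.79 ± 0.32, edgeR adjusted p = 3.34e-06), and Cd3e, a defining T cell gene, at 1.41, 3.68 and 2.64 and 1.66, 2.62, 2.07 and 0.971 CPM.

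The remaining marker lists held 1 to 7 calls each, most among interstitial macrophage genes. Of 8 neutrophil markers 1 was higher (summed 83.9 to 95.8 CPM in F-high and 93.3 to 118 CPM in F-low), and of 15 dendritic cell markers 1 was lower (summed 526 to 579.7 CPM in F-high and 422 to 508 CPM in F-low). Of 11 epithelial markers 2 were lower (summed 297 to 397 CPM in F-high and 274 to 371 CPM in F-low). Among them was Epcam, an adhesion molecule of epithelium that alveolar macrophages also express, at 88.7, 109 and 75.8 CPM in F-high and 41.6, 31.1, 30.7 and 14.2 CPM in F-low (log2 -1.63 ± 0.30, edgeR adjusted p = 6.36e-04). Of 12 endothelial markers 2 were higher and 1 lower (summed 529 to 620.2 CPM in F-high and 404 to 567 CPM in F-low). Interstitial and perivascular macrophages, a neighbouring lung population, had 6 higher and 1 lower of 14 (summed 641 to 659 CPM in F-high and 459 to 583 CPM in F-low, lower in F-low without overlap), and the higher ones included Gas6 and Stab1 (log2 1.92 and 2.15). With the replicate numbers as a block, 1 B cell marker was lower and 1 erythroid and 2 neutrophil markers were higher. The part of these cells in the gene groups above was not tested.

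The same comparison in young asbestos-exposed mice, 4 F-low against 3 F-high libraries of mice aged 8 to 12 weeks, called 1638 genes (12.0%). Of these, 914 were called at both ages, which was 57.9% of the old and 55.8% of the young calls, and 913 had the same direction. The question whether the sort difference itself changed with age was tested as an interaction, which called 2 genes of 13629 (0.0147%), with 870 at an unadjusted p under 0.05. Ecm1, an extracellular matrix protein, was 25.5 ± 1.12 CPM in young F-high (SD, n = 3) and 106 ± 8.701 CPM in young F-low libraries (SD, n = 4). In old mice Ecm1 stood at 148, 112 and 115 CPM in F-high and 209, 199.7, 219 and 231 CPM in F-low. The increase in F-low was 2.06 ± 0.14 on the log2 scale in young and 0.78 ± 0.12 in old mice, an edgeR interaction of -1.29 ± 0.18 (adjusted p = 0.00385). Cpeb1, which encodes an mRNA-binding protein, had 3.35 ± 0.843 CPM in young F-high (SD, n = 3) and 11.5 ± 1.48 CPM in young F-low libraries (SD, n = 4). In old mice it stood at 20.2, 18.6 and 27.5 CPM in F-high and 23.3, 21.9, 21.9 and 23.3 CPM in F-low, with overlap. Its log2 fold changes were 1.78 ± 0.21 in young and 0.04 ± 0.17 in old mice, an edgeR interaction of -1.74 ± 0.27 (adjusted p = 0.00945). With the replicate numbers as a block, or with all 24 libraries, no gene was called in the interaction: the adjusted p was 0.0991 for Ecm1 and 0.146 for Cpeb1 with the block and 0.202 for both with all libraries. Without old F-high replicate 4, Cpeb1 had an adjusted p of 0.0518.

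Several of the larger groups were called in the same direction at both ages. C1qb had a log2 fold change of 2.92 ± 0.19 in young and 4.03 ± 0.21 in old mice, Arg1 of 3.997 ± 0.25 and 4.02 ± 0.24, and Mmp12 of 3.38 ± 0.58 and 2.23 ± 0.54. The 28 scar-associated genes had 19 higher and 0 lower calls in young mice, and the 34 cholesterol and fatty acid synthesis genes 18 and 0, against 22 and none in old mice. The 30 ER genes had 11 higher and 0 lower calls in young mice, against 16 and none in old mice. Calls of other lists leaned differently in young mice. The 19 cholesterol efflux genes had 6 higher and 2 lower calls in young mice, against 1 and 7 in old mice, with medians of 0.04 and 0.03. Of the genes lower in old mice, Abca1 had -0.34 ± 0.14 and Pltp -0.06 ± 0.09 in young mice, neither called (edgeR adjusted p = 0.117 and 0.726). The 34 monocyte markers had 9 higher and 2 lower calls in young mice, against 6 and 5 in old mice. No gene of these 5 lists was called in the interaction, so the counts alone do not show that the lists differed between ages.

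**Figure D4:**
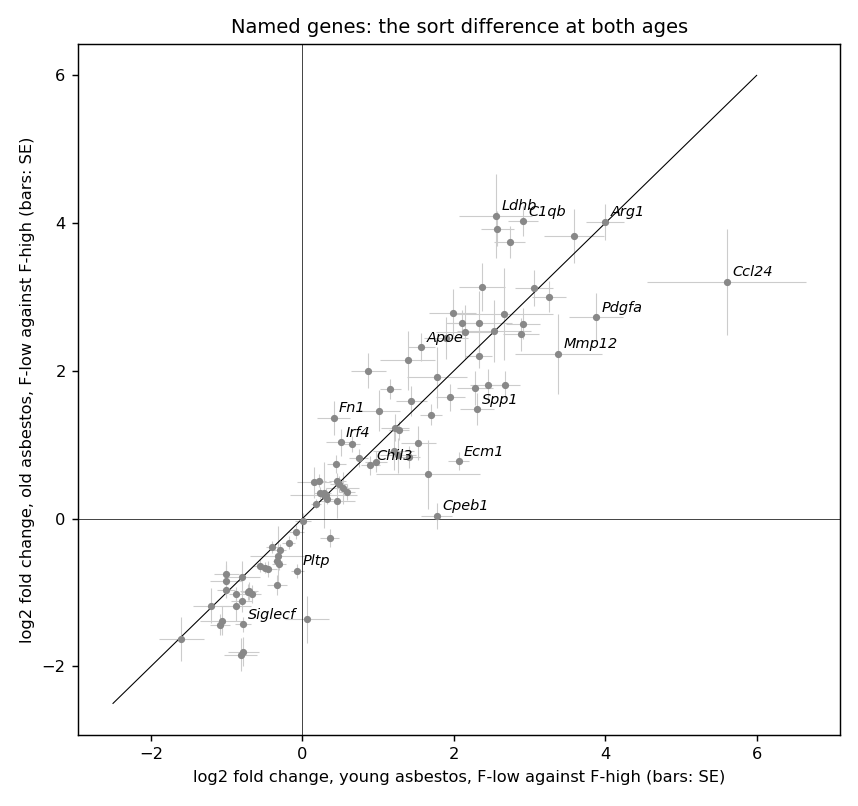
Each point is a named gene; the x axis is its log2 fold change (F-low against F-high) in young and the y axis that in old asbestos-exposed mice, bars are standard errors and the line marks equal values. Most points lie near the line, and Ecm1 and Cpeb1 lie to the right of it. Most of these genes were named for a small p in old mice, and Ecm1 and Cpeb1 for a called interaction. Their places thus partly follow from the choice. Over all 13629 genes the old and young log2 fold changes correlated at 0.612 (Pearson).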

How the data were processed

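The deposited data were unscaled whole-number counts for 43430 Ensembl genes in 24 libraries, in a single table by the authors. The submitters' processing notes name bcl2fastq 2.19.1, FastQC, Trimmomatic 0.36, STAR 2.6.0, HTSeq 0.11.2 and the build mm10; per the labels, poly(A) libraries were made with a NEBNext Ultra kit from 30 ng RNA. The strand setting of the counting is not given in the sources used here, so overlapping genes cannot be told apart. Symbols matched 42462 IDs, and positions are from GENCODE M21.

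Genes passing filterByExpr of edgeR (minimum count 10, minimum total 15, by group) were scaled by TMM and fitted in edgeR 4.0.16 (R 4.3.3) with 1 term per group over 22 libraries, tested by the quasi-likelihood F test and adjusted by Benjamini-Hochberg over all 13629 genes; genes with an adjusted p under 0.05 were called. The SE is the absolute log2 fold change divided by the square root of F. Its median was 0.139. CPM are scaled to the effective library sizes. DESeq2 1.42.0 and limma 3.58.1 served as alternatives, and the edgeR fit was tested on simulated data.

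Members, lists and tests were chosen with earlier results of these data known. Genes were named by rule: 11 fixed genes, the 12 higher and 12 lower called genes of smallest p without overlap between the sorts, up to 4 such members per list, and called interaction genes. Cd3e, Cidec, Fabp1, Fabp4, Ccr2, Ly6c2, C5ar1, Trem2, Gpnmb, Fn1, Apoc1, Timp1, Igf1, Retnla, Abcg1, Eno2, Lyz2 and the ER genes with a printed element were chosen after their values were seen. Some genes named by the rule are not reported here, though they stay in the counts.

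Replicate numbers are not said to pair animals. Between the old asbestos sorts the deviations of same-numbered libraries from their group means correlated at 0.15, 0.189 and 0.205, each above 0.1. Differently numbered old libraries correlated at -0.142 to 0.0234, below every same-numbered value. In the young sorts 1 of the 3 same-numbered values, 0.0854, was below 0.1, and differently numbered libraries correlated at -0.248 to 0.089. The numbers were taken as pairs only in the fits with the replicate block. The main fit had no term for pairs, so its p-values are unpaired.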

Additional observations from a re-analysis of the deposited data

Results flagged for a closer look

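The difference between the sorts changed with age for 2 genes by the edgeR interaction test: the interaction was -1.285 on the log2 scale for Ecm1 and -1.737 for Cpeb1, in both a smaller increase in F-low in old than in young mice. Both calls were lost when all 24 libraries or the replicate block were used.

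Among 4 F-low libraries of 1 age, a single library stood apart from the other 3 in 13 of 192 sets of values examined. Chance gives about 1 in 20, and the sets share libraries, so they are not independent. In the old mice, F-low replicate 1 held 254 CPM of Apoe against 354 to 373 in the others, and replicate 3 held 31.2 CPM of Irf4 against 41.5 to 43.5. Old F-low replicate 2 stood apart for 4 genes: high for Marco at 649 CPM against 266 to 325 and for Fabp4 at 346 against 206 to 223, low for Atf5 at 46.4 against 57.5 to 58.8 and for Creld2 at 71.7 against 80.8 to 82.7. In the young mice, F-low replicate 2 was high for Arg1 at 224 CPM against 138 to 144, for Ccl24 at 34.5 against 1.63 to 3.44 and for Retnla at 80.2 against 16.6 to 25.9. Young F-low replicate 1 was low for Il7r at 41.3 CPM against 55.5 to 57.7 and for Ldhb at 2.55 against 3.88 to 4.11. Young F-low replicate 4 was low for Irf4 at 7.78 CPM against 13.3 to 14.3 and high for Lepr at 133.9 against 119 to 121.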

How the results depend on the processing

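The count of 1578 genes called between the sorts depended most on which libraries shared the fit. It was 579 with all 24 libraries and 429 with young asbestos F-high replicate 3, a library outside this contrast, alone added back. At an adjusted p under 0.01 it was 829, and at an absolute log2 fold change of at least 1 it was 454. Leaving out each old asbestos library in turn gave 1024 to 1637. With the replicate block edgeR called 1389 genes, and the block changed no call of a named gene between the sorts. Fits with only the groups compared, DESeq2 size factors, TMM without rRNA-related genes, the DESeq2 Wald test, limma voom, no filter and a 1 CPM filter gave 1503 to 2112, within 1.5 times the main count. For the interaction, edgeR called 0 genes with all 24 libraries, with young asbestos F-high replicate 3 alone added back, or with the replicate block. In these fits 650, 570 and 938 genes had an unadjusted p under 0.05. The DESeq2 Wald test called 29, limma voom 15 and edgeR without a filter 36, and leaving out single libraries gave 1 to 4. The fitted sign reversed for genes that were not called: with all 24 libraries Atf4 was at 0.11 and Cpeb1 at -0.033. Leaving out single libraries gave -0.042 to 0.467 for Marco (-0.042 without F-low replicate 2), -0.078 to 0.013 for Atf4 and -0.07 to 0.222 for Cpeb1. Of 96 named genes, 69 kept their direction and their side of the threshold under every alternative run. The cause of these changes was not tested. Depth limits genes of a few counts: Ly6c2, Timp1, Ldhb, Eno2, Gas6 and Cmklr1 stood at a few CPM or less in some libraries.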

Other observations

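Macrophages recognise dying cells through bridging proteins on exposed phosphatidylserine. Of 28 genes for this uptake, 10 were higher (35.7%) and 2 lower (7.14%) in F-low, against 6.3% and 5.28% of all genes. With all 24 libraries, 8 were higher and 0 lower. The largest log2 fold change of the list, 4.03, was that of C1qb, already counted among the complement genes, so the lists are not separate evidence. Mfge8, a bridging protein, stood at 201, 186 and 258 CPM in F-high and 789, 547, 690.1 and 1000.3 CPM in F-low (log2 1.81 ± 0.19, edgeR adjusted p = 9.83e-07). Gas6, the ligand of the receptors AXL and MERTK, stood at 0.771, 0.499 and 1.86 CPM in F-high and 4.29, 3.51, 3.92 and 3.69 CPM in F-low (log2 1.92 ± 0.41, edgeR adjusted p = 0.00289). Itgb3, an integrin chain that binds MFGE8, changed by 2.45 ± 0.28 on the log2 scale (edgeR adjusted p = 3.46e-06). None of these genes overlapped between the sorts.

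Enzymes of lipid mediators were divided. Ptgs1, the cyclooxygenase COX-1, stood at 28.97, 30.1 and 32.96 CPM in F-high and 82.6, 81.5, 92.2 and 112 CPM in F-low (log2 1.59 ± 0.20, edgeR adjusted p = 1.05e-05). Alox5, the enzyme that starts leukotriene synthesis, stood at 524, 524 and 480.0 CPM in F-high and 337, 375, 322 and 278 CPM in F-low (log2 -0.63 ± 0.09, edgeR adjusted p = 5.13e-05). Alox5 was not called with all 24 libraries or with young asbestos F-high replicate 3 alone added back (edgeR adjusted p = 0.124 and 0.137). Pla2g7, which degrades platelet-activating factor, changed by 1.76 ± 0.23 on the log2 scale (edgeR adjusted p = 1.63e-05).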
